A study of Mus musculus with 6 samples.

Results

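The complement genes of the mouse retina were described as a group of 9 members, chosen by symbol from the deposited gene tables, and all 9 were found among the 35485 genes listed. They are the chains of the recognition protein C1q (C1qa, C1qb and C1qc), the components C2, C3 and C4b, complement factor B (Cfb), the C1 inhibitor gene Serping1 and the membrane regulator Cd59a. All 9 passed the filter on low values, for which the mean RPKM of either group had to exceed 0.3 and which left 13670 genes for the test. RPKM is a level per length, the exon reads per kilobase of exon scaled to all reads on genes. RNA-seq was performed on whole retinas of wild type C57BL/6 mice at 12 weeks of age, taken 2 days after surgery. The optic nerve crush (ONC) group had a crush lesion of the nerve (2 mm from the eye, 10 seconds), an injury to the axons of retinal ganglion cells (RGCs), the output neurons. Sham mice had the surgery without the lesion. Each group had 3 samples, and each sample was RNA combined from 6 retinas of different mice, so the spread between samples is a spread between pools.

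Complement is a set of proteins that tag surfaces for removal. C1q, built from 3 kinds of chain, binds a surface and activates the proteases C1r and C1s, which cleave C4 and C2. The fragments form a convertase that cleaves C3, the component where the classical, lectin and alternative pathways meet. Factor B takes the place of C2 in the alternative pathway, the C1 inhibitor stops C1r and C1s, and CD59 blocks the terminal complex that forms pores in membranes. In the central nervous system microglia are known as the main source of C1q, and complement is known for its part in the removal of synapses.

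The C1q chains lie side by side. In the positions of the files, which match GRCm38, C1qb runs from 136880145 to 136886177 on chromosome 4, C1qc from 136889802 to 136892914 and C1qa from 136895916 to 136898844. Each has 3 exons on the minus strand, and the 3 genes span 18700 bases. The RefSeq promoter table (GRCm38.p6) matched 4 of the 9 members, which were C1qb, C1qc, C3 and Cd59a. Because all C1q chains were higher in ONC, sequence before 2 of them is shown, 5′ to 3′ on the minus strand. For C1qb these are the 250 bases before the start in the RefSeq table (chr4:136886201-136886450). That start lies upstream of 136886177, where the gene starts by the positions of the files. For C1qc they are 99 bases of that window (chr4:136893066-136893164), those that lie ahead of every annotated transcript start. Capitals mark GAGGAA, the core bound by ETS factors such as PU.1, a factor of the myeloid lineage, or its reverse complement TTCCTC.
C1qb: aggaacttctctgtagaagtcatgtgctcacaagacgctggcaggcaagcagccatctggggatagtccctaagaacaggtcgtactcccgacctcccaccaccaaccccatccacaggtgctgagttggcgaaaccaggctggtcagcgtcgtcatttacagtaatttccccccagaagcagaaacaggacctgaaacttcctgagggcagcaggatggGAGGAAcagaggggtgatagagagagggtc
C1qc: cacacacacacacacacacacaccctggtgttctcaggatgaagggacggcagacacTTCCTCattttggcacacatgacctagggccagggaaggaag
Counted from the starts in the RefSeq table, the motif begins 30 bases before the C1qb start and 193 bases before the C1qc start. It was also found 62 bases before the start of Cd59a and was not found before C3. Both strands were searched, and 23.3% of 32851 promoters of 250 bases hold this motif, so a match is common. An interferon-stimulated element, GAAANNGAA, present in 7.13% of promoters, was found 187 bases before Cd59a. An NF-kB element, present in 3.90% of promoters, was found 41 bases before C1qc, outside the printed bases. A GAS element, TTCNNNGAA, present in 7.02% of promoters, was in none of the 4 windows. These matches describe letters and not binding.

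Exon reads numbered 17343945 to 18349331 in the sham samples and 20019818 to 20358008 in the ONC samples. Exons held 70.9% to 76.6% of the reads on genes in sham samples and 78.5% to 80.4% in ONC samples (two-sided exact permutation p = 0.1, below which 3 against 3 cannot go). RPKM divides by intron reads too. With that scaling the median log2 fold change of all genes was 0.13, whereas it was 0.0099 with TMM, the scaling used for the tests. Total exon reads were compared with edgeR's quasi-likelihood test. A gene is said to be called where its adjusted p (Benjamini-Hochberg over all genes tested) was under 0.1 and its fold change above 1.5. All 8 RGC markers tested were lower in ONC at an adjusted p under 0.1, and 5 of them were called. Nefl, the highest of the 8, had a log2 fold change of -0.53 (SE 0.07, adjusted p = 4.1e-05). The study had already reported the 5 called markers as lower in these samples. It found Pou4f3 and Thy1 not significantly changed. Pou4f3 was not in the list. Thy1 was in it, and here it had a log2 fold change of -0.22 (SE 0.06, adjusted p = 0.0517) and was not called. Because the 5 called markers were already reported from these samples, the count is not an independent check of the injury.

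The 3 C1q chains were higher in ONC at an adjusted p under 0.1, and no other member passed that threshold. Of the 9 members, 2 were called, C1qb and C1qa, both higher in ONC. Among all genes tested, 0.827% were called as higher and 1.66% were called in either direction. C1qc had an adjusted p under 0.1 but a fold change just below 1.5, so 3 of 9 members passed on the adjusted p alone, against 2.38% of all genes for higher values and 6.09% for either direction. In TMM-normalized reads, 4 of 9 members (the C1q chains and C4b) had all ONC samples above all sham samples, which was the case for 11.0% of all genes. The median log2 fold change of the 9 members was 0.10.

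**Figure D1:**
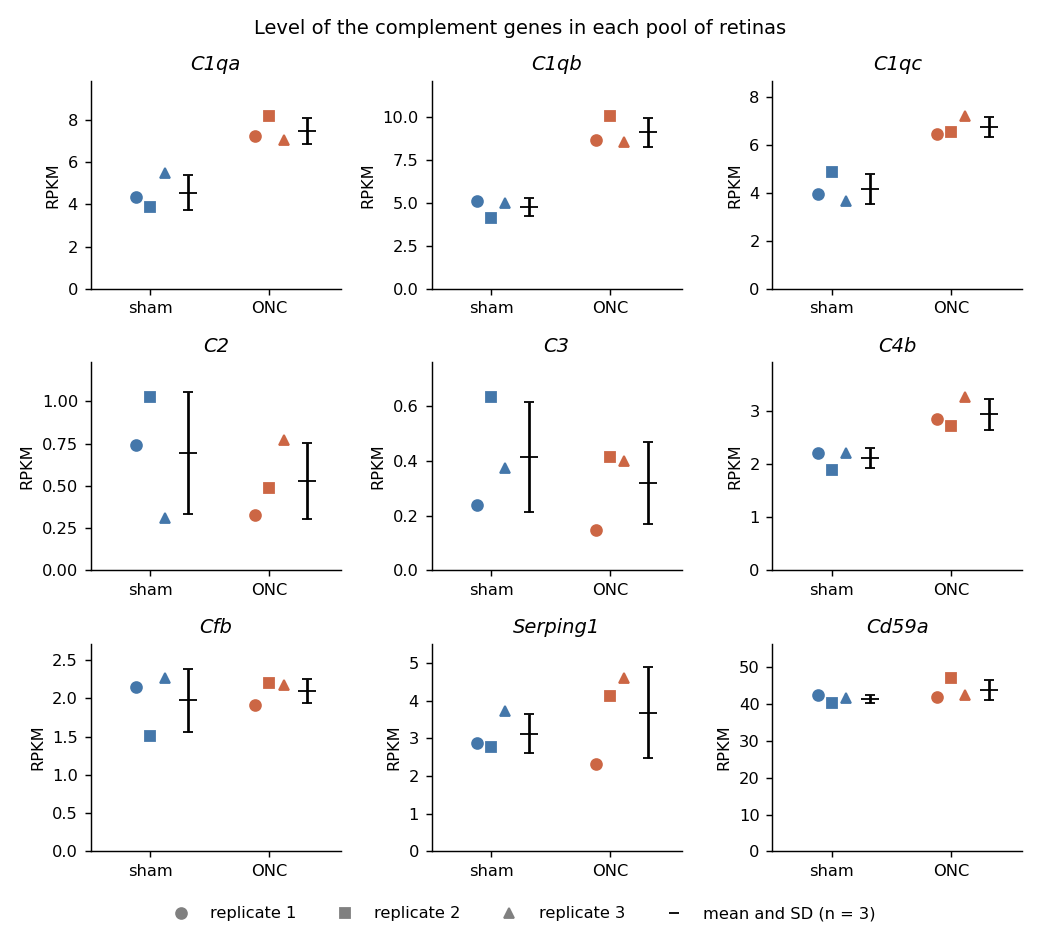
RPKM of each of the 9 members in the 3 sham (blue) and 3 ONC (orange) samples, with marker shapes for replicates and the mean ± SD in black; each panel starts at 0 and has its own scale. The 3 C1q chains and C4b have all ONC samples above all sham samples, and the other 5 overlap.

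C1qb, the chain with the largest change, had 5.08, 4.13 and 5.001 RPKM in sham replicates 1, 2 and 3 and 8.67, 10.06 and 8.53 RPKM in ONC replicates 1, 2 and 3. The lowest ONC sample lay well above the highest sham sample. These levels rest on 105 to 130 exon reads per sham sample and 233 to 266 per ONC sample. The mean rose from 4.74 ± 0.529 to 9.09 ± 0.848 RPKM (SD, n = 3), and the log2 fold change was 0.81 (SE 0.17, 95% interval 0.46 to 1.16, adjusted p = 0.00633).

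C1qa had 4.34, 3.86 and 5.48 RPKM in the sham samples and 7.23, 8.21 and 7.05 RPKM in the ONC samples. The groups did not overlap, with sham replicate 3 the highest of its group. Its mean went from 4.56 ± 0.830 to 7.50 ± 0.621 RPKM (SD, n = 3), with a log2 fold change of 0.59 (SE 0.19, 95% interval 0.19 to 0.98, adjusted p = 0.0931). C1qa was called with a fold change of 1.501, at the edge of the threshold, and the call was lost without sham replicate 1 (log2 fold change 0.52, adjusted p = 0.232), sham replicate 2 (0.46, adjusted p = 0.326), ONC replicate 2 (0.53, adjusted p = 0.299) or ONC replicate 3 (0.62, adjusted p = 0.189).

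C1qc had 3.96, 4.87 and 3.64 RPKM in the sham samples and 6.45, 6.52 and 7.21 RPKM in the ONC samples, again without overlap. The mean was 4.16 ± 0.637 RPKM in sham and 6.72 ± 0.418 RPKM in ONC (SD, n = 3). Its log2 fold change was 0.57 (SE 0.18, adjusted p = 0.0931), a fold change of 1.49. Its adjusted p was between 0.112 and 0.310 without any 1 of the samples other than ONC replicate 1, and 0.0671 without that one. No C1q gene had more than 2 intron reads in any sample.

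The 3 chains kept similar proportions. C1qb made up 35.2% ± 2.93 of the summed C1q RPKM in sham and 38.9% ± 1.59 in ONC (SD, n = 3), C1qa 33.7% ± 4.52 and 32.1% ± 1.09, and C1qc 31.1% ± 6.18 and 28.9% ± 2.66. For each chain the shares of the groups overlapped. Summed over the chains, C1q had 13.4, 12.9 and 14.1 RPKM in the sham samples and 22.3, 24.8 and 22.8 RPKM in the ONC samples, a ratio of means of 1.73 on the RPKM scale.

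C4b, the gene of the mouse C4 component that C1s cleaves, had 2.21, 1.89 and 2.21 RPKM in the sham samples and 2.84, 2.70 and 3.26 RPKM in the ONC samples. Every ONC sample was above every sham sample, but the difference did not pass the test with TMM. The log2 fold change was 0.36 (SE 0.13, 95% interval 0.08 to 0.64, unadjusted p = 0.0149, adjusted p = 0.168). With the scaling of RPKM it was 0.48 with an adjusted p of 0.0365, past the threshold on p and below that on fold. C4b (chromosome 17, 34728380 to 34743897) has 41 exons, and 87.3% of its exon reads spanned an exon-exon junction. Its near copy C4a had 12 to 14 exon reads per sham sample and 17 to 31 per ONC sample, under the filter. Because 92.9% of the C4b reads were uniquely mapped, the rest may be shared between these genes.

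C2, the protease part of the classical convertase (chromosome 17, 34862602 to 34882100), had 0.740, 1.03 and 0.309 RPKM in the sham samples and 0.329, 0.486 and 0.773 RPKM in the ONC samples. The groups overlapped over nearly their whole range. C2 had 20 to 65 exon reads per sample, and its log2 fold change of -0.49 (SE 0.43, adjusted p = 0.613) had a 95% interval from -1.39 to 0.41. C3 (chromosome 17, 57203973 to 57228136) was the lowest member, with 0.237, 0.634 and 0.374 RPKM in the sham samples and 0.146, 0.415 and 0.398 RPKM in the ONC samples. Its groups overlapped as well, and 19 to 78 exon reads were counted per sample. The log2 fold change of C3 was -0.50 (SE 0.41, 95% interval -1.37 to 0.36, adjusted p = 0.580). Both values moved with single samples. Leaving out 1 sample gave -0.87 to -0.11 for C2, with -0.11 without sham replicate 2, and -0.80 to -0.10 for C3, with -0.10 without sham replicate 2, and the adjusted p stayed above 0.1 for both.

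Cfb, the protease of the alternative pathway convertase, lies 87 bases from C2 on chromosome 17 (34856374 to 34862514). It had 2.15, 1.504 and 2.26 RPKM in the sham samples and 1.91, 2.19 and 2.18 RPKM in the ONC samples. The groups overlapped, and the log2 fold change was -0.043 (SE 0.20, 95% interval -0.46 to 0.38, adjusted p = 0.941). The reads counted on Cfb differed in kind from those of the other members. Cfb has 19 exons, but 8 of its 825 exon reads over the 6 samples (0.970%) spanned an exon-exon junction, with 0, 0 and 5 in the sham samples and 0, 2 and 1 in the ONC samples. C2, with 18 exons, had 42.2%, Serping1 45.3% and C3 92.1%. Among 2653 genes tested with 15 to 25 exons and at least 100 exon reads, the median was 52.9% (quartiles 39.0% and 66.6%), and 8 of those genes, Cfb included, were at or below the value of Cfb. The neighbouring gene Rdbp, on the plus strand, had 6.83 to 9.16 RPKM. Cfb is on the minus strand, so the 2 genes run towards each other, and their ends lie 1 base apart. Whether reads were counted by strand was not given in the sources used here, and the part of Rdbp in the Cfb counts was not tested. The level of Cfb thus rests almost wholly on reads that span no junction.

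**Figure D2:**
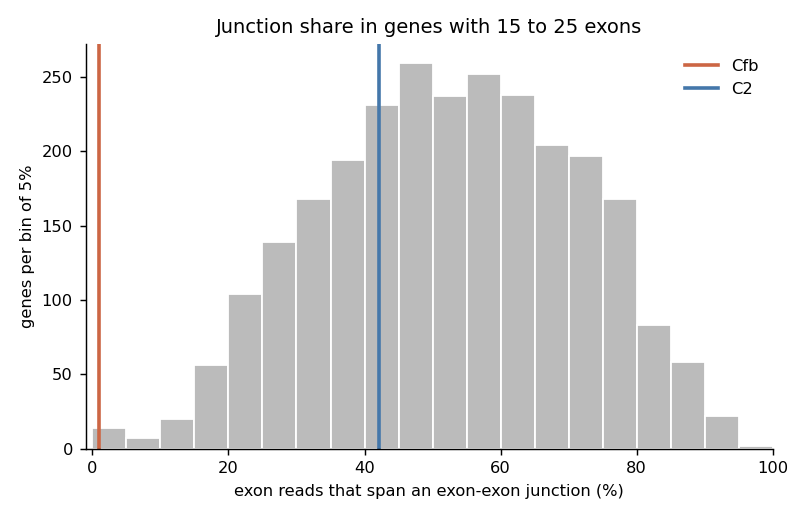
Number of genes (y axis) by the share of their exon reads that span an exon-exon junction (x axis, %, bins of 5%), over the 2653 genes tested with 15 to 25 exons and at least 100 exon reads; lines mark Cfb and C2. Cfb stands at 0.970%, at the left edge, and C2 at 42.2%, inside the bulk of the genes.

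Serping1, the gene of the C1 inhibitor (chromosome 2, 84765360 to 84775429), had 2.89, 2.78 and 3.73 RPKM in the sham samples and 2.32, 4.13 and 4.60 RPKM in the ONC samples. ONC replicate 1 was the lowest of all 6 samples and ONC replicate 3 the highest, so the spread within ONC covered that of sham. The log2 fold change was 0.10 (SE 0.23, 95% interval -0.37 to 0.57, adjusted p = 0.870). Cd59a (chromosome 2, 104095801 to 104115354) was the member with the most reads. It had 42.6, 40.4 and 41.6 RPKM in the sham samples and 41.9, 47.1 and 42.7 RPKM in the ONC samples, from 1753 to 2121 exon reads per sample. The groups overlapped, and the log2 fold change of -0.045 (SE 0.07, adjusted p = 0.791) had a 95% interval from -0.19 to 0.10, which does not include a change of 1.5-fold in either direction. Its sign turned with the scaling of RPKM (0.080), as did that of Cfb (0.086), and neither passed the test under that scaling.

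**Figure D3:**
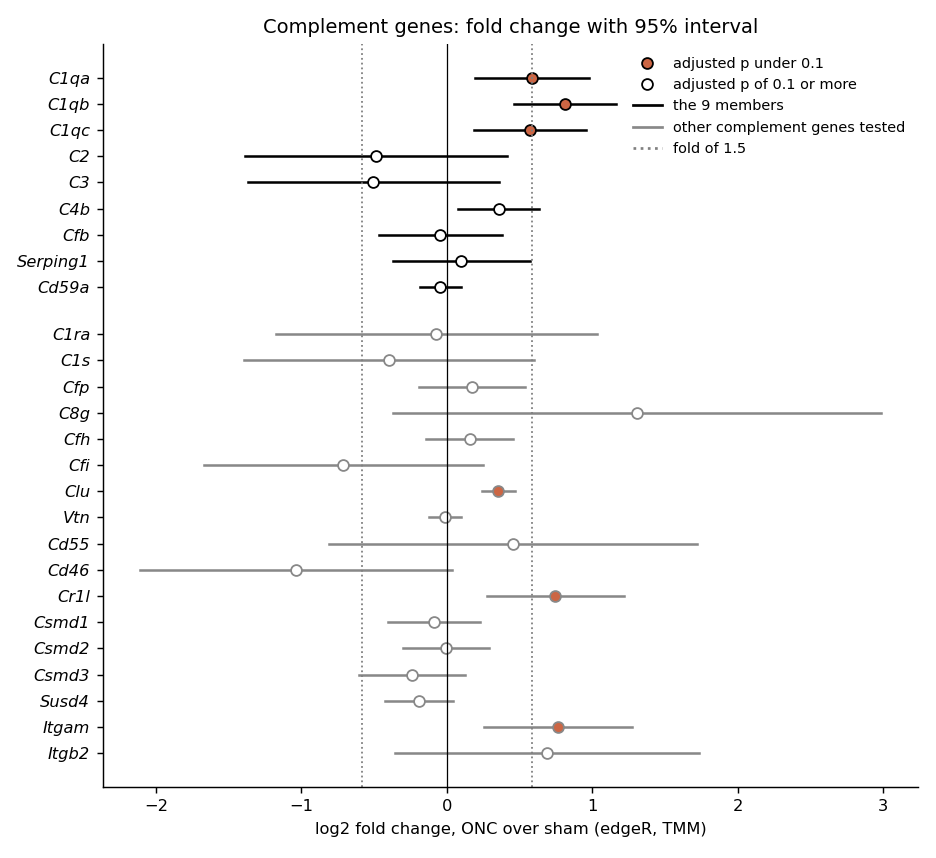
Log2 fold change of ONC over sham (x axis, edgeR with TMM) with its 95% interval for the 9 members (black) and the 17 other complement genes tested (grey); filled points have an adjusted p under 0.1 and dotted lines mark a fold change of 1.5. The filled points are the 3 C1q chains, Clu, Cr1l and Itgam, all above 0.

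By level, Cd59a stood first in both groups. In sham it was followed by C1qb, C1qa, C1qc and Serping1, whose ranges over samples overlapped from each to the next, then by C4b and Cfb, which overlapped each other, and by C2 and C3, which also did. In ONC the C1qb range lay above that of C1qa, C1qa and C1qc overlapped, and the C1qc range lay above that of Serping1. Serping1 and C4b overlapped, Cfb lay below C4b, and C2 and C3 again overlapped at the end. The members also differed in how evenly the pools measured them. The coefficient of variation of TMM-normalized reads was 49.3% in sham and 42.3% in ONC for C2, and 46.7% and 45.7% for C3. It was 5.96% and 4.01% for Cd59a and 12.3% and 10.7% for C4b. The C1q chains had 12.1% to 23.6% in sham, where C1qa was the highest of them, and 6.32% to 7.23% in ONC. Serping1 had 22.2% in sham and 31.4% in ONC, and Cfb 24.2% and 5.52%.

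Set against the summed C1q chains of the same sample, which removes the scaling between samples, all other members except C2 had each ONC sample below each sham sample. Cd59a had 3.18, 3.14 and 2.94 RPKM per RPKM of summed C1q in the sham samples and 1.88, 1.90 and 1.87 in the ONC samples, a difference of -0.71 between the group means of the log2 ratio. For Cfb that difference was -0.69, for Serping1 -0.61 and for C4b -0.31. C4b stayed nearest to C1q, with ratios of 0.165, 0.147 and 0.157 in the sham samples and 0.127, 0.109 and 0.143 in the ONC samples. C3 gave -1.20, with the highest ONC ratio (0.0175) just under the lowest sham ratio (0.0177), and C2 gave -1.10 with overlapping groups. Without 1 sample the difference ranged from -1.63 to -0.70 for C2 (-0.70 without sham replicate 2), from -1.54 to -0.74 for C3 (-0.74 without ONC replicate 1 and -0.80 without sham replicate 2) and from -0.81 to -0.33 for Serping1 (-0.33 without ONC replicate 1). These ratios share their denominator, the summed C1q chains, which was itself higher in every ONC sample. A gene without a change between groups therefore also falls in them, as Cd59a did. The lower ratios are thus a restatement of the C1q difference and no separate result, and no test was made on them.

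**Figure D4:**
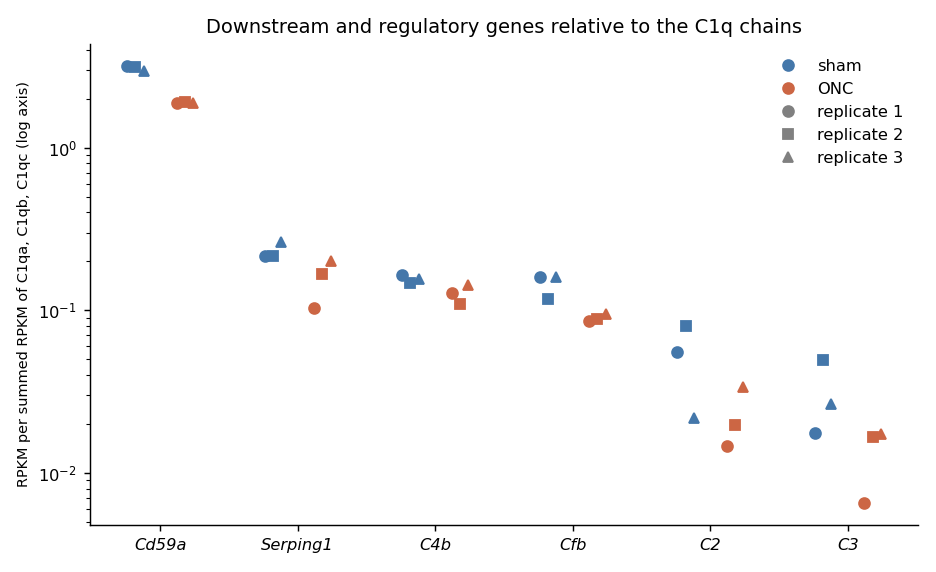
RPKM of the 6 other members divided by the summed RPKM of C1qa, C1qb and C1qc in the same sample (log axis), for 3 sham (blue) and 3 ONC (orange) samples with marker shapes for replicates. The ONC points lie below the sham points for every gene except C2, whose groups overlap. The denominator was itself higher in every ONC sample, so a gene without a change also falls.

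In bulk retina more RNA per cell and more cells of a type cannot be told apart, so the markers of cells that could carry C1q are given beside it. Of 15 microglial markers listed, 13 were tested, 12 had a positive log2 fold change and 2 had an adjusted p under 0.1, among them Ctss, the gene of a lysosomal protease (0.49, SE 0.14, adjusted p = 0.0628). None was called. The median over the 13 was 0.42, in a range from -0.32 to 0.96, and 2 of them had a larger value than C1qb and 3 a larger value than C1qc. Summed over the list, the microglial markers had 32.9 to 36.9 RPKM in sham and 47.9 to 56.2 RPKM in ONC (two-sided exact permutation p = 0.1). Summed C1q per summed marker RPKM was 0.363, 0.391 and 0.383 in the sham samples and 0.466, 0.441 and 0.445 in the ONC samples, a ratio of means of 1.19. Both sums were higher in every ONC sample, that of the chains by the larger ratio, and the part of microglial number in the C1q result was not tested.

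**Figure D5:**
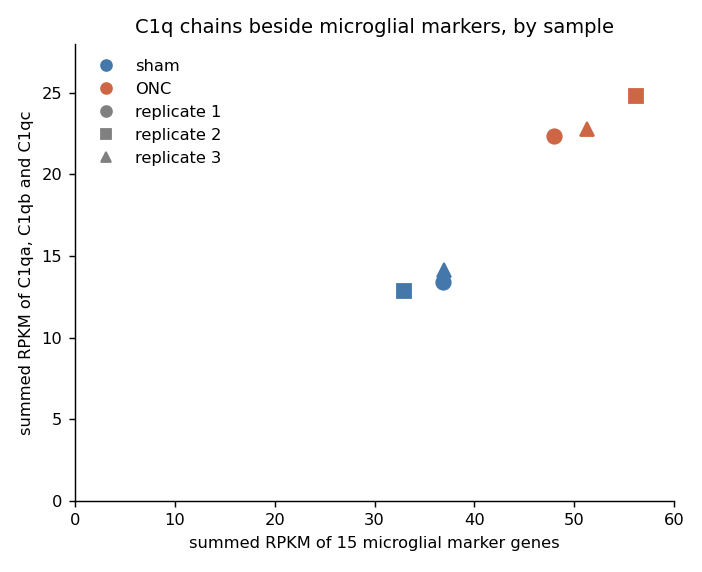
Summed RPKM of the 3 C1q chains (y axis) against the summed RPKM of 15 microglial markers (x axis) in each of the 6 samples, both axes from 0. The sham samples sit at 12.9 to 14.1 RPKM of C1q and 32.9 to 36.9 RPKM of markers, and the ONC samples at 22.3 to 24.8 and 47.9 to 56.2.

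Markers of other cells that the retina holds or that can enter it were counted likewise. For monocytes and other leukocytes, 3 of 9 listed markers found in the tables were tested and none passed. Their summed level was 5.29 to 9.18 RPKM in sham and 6.34 to 14.7 RPKM in ONC, with Ly6c1, a gene that endothelium also uses, the highest (4.05 ± 0.806 RPKM in sham and 4.83 ± 1.17 in ONC, SD, n = 3), and Ccr2 and Ms4a1 had no read in any sample. None of 8 markers of Müller glia and astrocytes, 9 of endothelial and mural cells or 7 of retinal pigment epithelium passed. Their highest genes were Glul (log2 fold change -0.13, SE 0.05), Kdr (-0.054, SE 0.10) and Ttr (-0.065, SE 0.12). Of the 8 glial markers, 4 had a positive log2 fold change, with a median of 0.013. Among them Gfap, a filament gene that reactive glia raise, had 0.36 (SE 0.12, adjusted p = 0.126, groups overlapping), and Vim, another filament gene, had 0.18 (SE 0.06, adjusted p = 0.112, every ONC sample above every sham sample). Their part in the complement values was not tested. Red blood cell genes summed to 116 to 258 RPKM in sham and 76.9 to 111 RPKM in ONC, and 2 of 4 tested were called as lower, Hba-a1 (log2 fold change -0.99) and Hba-a2 (-1.24). Only 28.7% of the Hba-a1 exon reads and 29.5% of those of Hba-a2 were uniquely mapped. The rest may be shared between these genes, so the 2 calls may not be separate. Hba-a1 had 134.6, 65.9 and 55.5 RPKM in the sham samples and 41.0, 53.8 and 44.3 RPKM in the ONC samples, so that sham replicate 1 stood far above the rest. The part of blood in the complement values was not tested. Of 6 photoreceptor markers, 2 had an adjusted p under 0.1 as higher in ONC and none was called.

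The rest of the complement system was described from lists of 52 other genes, of which 47 were in the tables and 17 were tested. At an adjusted p under 0.1, 3 of the 17 were higher in ONC and 0 were lower, and 2 were called. Among all genes tested, 2.38% were higher at that adjusted p and 0.827% were called as higher. The median log2 fold change of the 17 was -0.0037, and 8 of 17 were positive, beside a median of 0.0099 over all genes tested. Cr1l (Crry), a rodent membrane regulator that limits C3 cleavage, had 1.99, 1.46 and 1.65 RPKM in the sham samples and 2.83, 3.51 and 2.97 RPKM in the ONC samples. Its log2 fold change was 0.74 (SE 0.23, adjusted p = 0.0741). Itgam, the alpha chain of complement receptor CR3 on microglia and other myeloid cells, had 0.762, 0.464 and 0.506 RPKM in the sham samples and 1.15, 1.11 and 0.939 RPKM in the ONC samples (log2 fold change 0.76, SE 0.24, adjusted p = 0.0903). Both sets of values were without overlap between groups. In TMM-normalized reads, 11.0% of all genes had all ONC samples above all sham samples. However, 0 of these 2 genes remained called without sham replicate 2 or 3 or ONC replicate 2 or 3. Without ONC replicate 1, 1 of them (Cr1l) remained called. The study had picked the C1q chains, Cr1l and Itgam from these samples, so their direction here is not independent evidence.

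Clu, the gene of clusterin, which keeps the terminal complex out of membranes, was among the most abundant complement genes. It had 200.4, 204.1 and 174.3 RPKM in the sham samples and 270.5, 268.5 and 264.2 RPKM in the ONC samples. The groups were well apart, and the log2 fold change was 0.35 (SE 0.05, adjusted p = 0.000386), below the fold threshold. Vtn (vitronectin), another inhibitor of the terminal complex, had 411 ± 5.97 RPKM in sham and 443 ± 11.0 RPKM in ONC (SD, n = 3) and a log2 fold change of -0.014 (SE 0.05, adjusted p = 0.926).

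The early proteases and the terminal components were near the limit of detection. C1ra had 0.289 ± 0.0657 RPKM in sham and 0.3003 ± 0.183 in ONC (SD, n = 3), and C1s 0.311 ± 0.104 and 0.255 ± 0.0504, so the mean of the summed C1q chains was far above those of the proteases that C1q activates. Neither passed the test (adjusted p = 0.962 and 0.728). None of the 8 lectin pathway genes reached the filter, and Masp2 and Colec11 were the highest of them, with at most 31 and 9 exon reads in a sample. In the terminal pathway 1 gene was tested, C8g (log2 fold change 1.31, SE 0.80, adjusted p = 0.435, 1 to 20 exon reads per sample), and C8a had at most 8 exon reads. No read was counted in any sample on Mbl1, Mbl2, Cfd, C7, C9 or Daf2. Of the alternative pathway, Cfp (properdin) had 3.96 ± 0.429 RPKM in sham and 4.86 ± 0.881 RPKM in ONC (SD, n = 3) and a log2 fold change of 0.17 (SE 0.18, adjusted p = 0.670). Susd4, a membrane regulator, had -0.19 (SE 0.11, adjusted p = 0.414), and Itgb2, the partner chain of Itgam, had 0.69 (SE 0.50, adjusted p = 0.520).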

How the data were processed

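RNA-seq of 3 ONC and 3 sham samples was analysed, with groups and replicate numbers from the sample labels. Mapping by the authors used CLC Genomics Workbench 6.0.1, and they deposited, per gene and sample, read counts (total and unique exon reads, exon-exon reads, reads on the whole gene; an intact pair counts as 1) and RPKM. The deposited RPKM values are total exon reads per kilobase of exon, scaled to all reads on genes, introns included, and were recomputed from the counts to within 0.0005. Positions are those of the files. They match GRCm38 (99.86% of 29908 matched symbols overlap RefSeq), although the paper and labels name mm9. Pooled columns and comparisons in the files were not used.

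Genes whose mean RPKM exceeded 0.3 in either group were tested on total exon reads with edgeR 4.0.16 (TMM, glmQLFit and glmQLFTest, condition as the only term) in R 4.3.3. Calls needed a Benjamini-Hochberg adjusted p under 0.1 together with a fold change above 1.5, the thresholds of the study, whose own per-gene test on RPKM was not used. The SE is the log2 fold change divided by the square root of F. Single values were compared by exact two-sided permutation tests. The procedure was tested on simulated data.

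The members and lists were chosen with earlier results of these data known. Named are all members, other complement genes with an adjusted p under 0.1, the 2 of highest mean RPKM in each list, the 5 genes most like C1q, and markers by list counts with examples. The lists were C1 proteases, lectin, alternative and terminal pathways, C4 isotype, fluid-phase regulators, membrane regulators, receptors and 8 sets of cell type markers. Some markers (Ctss, Ccr2, Ms4a1, Hba-a2, Gfap, Vim) the complement genes given with no read and the Cfb neighbour Rdbp were named after their values were seen. Alternatives were DESeq2 size factors, the scaling of RPKM, the DESeq2 1.42.0 Wald test, limma 3.58.1 on log2(RPKM + 0.1) and log2(RPKM + 1), no RPKM filter, a mean RPKM above 1, unique exon reads, total gene reads, a replicate block, other thresholds and leaving out each sample. Exon-exon reads, and leaving out samples for the C1q ratios, were added after seeing the data. Values of some listed genes are not reported here.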

Additional observations from a re-analysis of the deposited data

How the results depend on the processing

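The C1qb call held under 16 of 17 other settings tried on its fold change (log2 0.70 to 0.94) and was lost with exon-exon reads (0.83, adjusted p = 0.306). With those reads C1qa had 0.27 (adjusted p = 0.845) and C1qc 0.45 (adjusted p = 0.685). That setting rests on fewer reads, 21.4% of the exon reads of C1qa, 24.7% of those of C1qb and 26.6% of those of C1qc. C1qb had 29, 17 and 42 exon-exon reads in the sham samples and 62, 69 and 51 in the ONC samples. Of the 9 members, 2 were called. C1qb was the 1 member called with DESeq2 size factors, the DESeq2 Wald test, a mean RPKM above 1, unique exon reads, the replicate block or an adjusted p under 0.05, and 0 were called with exon-exon reads. The scaling of RPKM, both limma fits, total gene reads and no fold threshold added C1qc (3 called), and leaving out 1 sample gave 1 to 3. Of the other complement genes, 2 were called (Cr1l and Itgam), 1 in each limma fit (Cr1l), 1 with unique reads and with the replicate block (Itgam), 2 with total gene reads (Itgam and Csmd3), 0 at an adjusted p under 0.05, and 0 to 2 without 1 sample: 0 without sham replicate 2 or 3 or ONC replicate 2 or 3, and 1 without ONC replicate 1. A call can be in either direction, and on total exon reads Csmd3 had a negative log2 fold change (-0.24, SE 0.17, adjusted p = 0.521). Cfb turned from -0.043 to 0.086 with the scaling of RPKM, 0.10 and 0.066 with limma (pseudocounts 0.1 and 1), 0.12 without sham replicate 3 and 0.0014 without ONC replicate 1 (range without 1 sample -0.22 to 0.12). Cd59a turned from -0.045 to 0.080 with the scaling of RPKM, 0.078 and 0.076 with limma, 0.022 with exon-exon reads and 0.00031 without sham replicate 3 (range -0.085 to 0.00031). Serping1 turned from 0.10 to -0.10 without ONC replicate 3, -0.0023 without sham replicate 2 and -0.0060 with exon-exon reads (range -0.10 to 0.33). The cause of these turns was not tested. Over all genes, 227 were called (113 higher, 114 lower), against 350 (263 and 87) with the scaling of RPKM, 282 (217 and 65) and 165 (126 and 39) with limma, 349 (113 and 236) with total gene reads, 153 with exon-exon reads and 153 to 353 without 1 sample. Samples with the same replicate number did not deviate together (r = -0.047, -0.033 and 0.0026). Pairs with different numbers had r from -0.031 to 0.066. With 3 samples per group, these values cannot show whether samples of the same number share more than the number. With the replicate block C1qa had an adjusted p of 0.108, C1qc 0.135 and C1qb 0.0106. With a mean RPKM above 1, C2 and C3 had no value. C2 and C3 had 19 to 78 exon reads per sample.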

Other observations

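Among 11969 genes whose mean RPKM exceeded 1 in either group, the 5 whose log2 TMM-normalized reads followed the mean of the C1q chains most closely over the 6 samples were Cars, Mthfd2, Slc38a7, Ptpn5 and Dok3 (Pearson r 0.998, 0.996, 0.994, 0.990 and 0.988; Spearman rho 0.943, 0.886, 0.829, 0.943 and 0.943). The 6 samples are 2 groups, so r mostly follows the difference between them, and it is given as a description of the closest of many genes. Cars, which charges cysteine tRNA, had a log2 fold change of 0.79 (SE 0.09), and Mthfd2, a mitochondrial folate enzyme, one of 1.18 (SE 0.16). Dok3, an adaptor protein of immune cells, had 0.69 (SE 0.21, adjusted p = 0.0754).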
